A study of Arabidopsis thaliana with 12 samples.

Results

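The alternative oxidases and alternative NAD(P)H dehydrogenases of Arabidopsis thaliana are described here in leaves under high light, heat and both stresses together. The genes were taken by name and locus, in a choice made with earlier results of these data known: AOX1A, AOX1B, AOX1C, AOX1D, AOX2, NDA1, NDA2, NDB2 and UPOX. They make 9 of the 32833 loci listed in the table of normalised counts. Of these 9, 6 had a mean of at least 10 normalised counts over the 12 libraries and were tested, and AOX1B, AOX1D and AOX2 were not.

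In plant mitochondria, electrons enter a ubiquinone pool and normally pass through complex III, cytochrome c and complex IV, with protons pumped on the way. An alternative oxidase takes electrons from ubiquinol straight to oxygen, and an alternative NAD(P)H dehydrogenase passes electrons to ubiquinone in place of complex I. Neither pumps protons, so the bypass lets carbon be oxidised with little ATP made. NDA proteins face the matrix and NDB proteins face the space between the membranes. AOX1A and UPOX, a small mitochondrial protein named for its induction by oxidative stress, are known markers of signalling from stressed mitochondria to the nucleus. UPOX carries no such symbol in the reference annotation, which describes its locus, AT2G21640, as a marker of the oxidative stress response.

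Wild-type Col-0 plants, 30 days old, grew in peat pellets at 23 °C, with 12 h of light (50 µmol m-2 s-1) in each day. For 7 h they then met light of 600 µmol m-2 s-1 together with 42 °C, 42 °C alone or the stronger light alone, or were left as controls. The 4 groups, labelled HL_HS, HS, HL and CT, are called the combination, heat, high light and control below, with 3 libraries each. Poly(A) RNA of leaves was sequenced. Whether the replicate libraries stand for separate plants is not in the labels, so p-values measure only their spread, which may be technical.

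Each library held between 29814116 and 36938786 reads on genes. The deposited size factors were 0.535 to 0.605 in the combination, 1.05 to 1.53 in heat, 1.13 to 1.31 in high light and 1.17 to 1.27 in control. Scaling by library totals instead moved the median log2 difference of all tested genes by -0.94 in the combination against control, -0.89 against high light, -0.86 against heat and -0.81 in the interaction. It also lowered the share of called genes that were higher, to 13.2% (against 50.1% with the deposited scaling) for the combination against control, 14.3% (against 48.95%) for the combination against high light, 12.5% (against 50.8%) for the combination against heat and 17.1% (against 49.8%) for the interaction. Where this choice ends a call of these 9 genes, turns a direction or moves a called value by over 1.5 times, the value with library totals stands beside the result, and values of other genes in the combination shift by a like amount. All 5 leaf mesophyll markers were detected, with summed normalised counts of 1868800 to 1948200 in the combination, 495030 to 1017300 in heat, 755410 to 975650 in high light and 1057900 to 1479700 in control, above those of every other marker list in each group. In the combination against control, 2 of the 5, RCA and CA1, were called higher and 0 lower. In heat 0 were called higher and 3 lower, and in high light 1 higher and 2 lower. Guard cell markers summed to 362 to 547 in the combination and 925 to 1205 in heat. Their sums were 1712 to 1825 in high light and 1300 to 1562 in control. Against control, 3 of 4 were called lower in the combination and 3 in heat, and in high light 1 was called higher and 0 lower. Phloem markers summed to 2516 to 2793 in the combination, 5094 to 8642 in heat, 4571 to 5604 in high light and 7437 to 9358 in control. Of the 3 phloem markers, SUC2 and SULTR2;1 were called lower in the combination than in control and APL higher. In heat 1 phloem marker was called higher and 0 lower, and in high light 0 higher and 1 lower. Of all tested genes, 29.8% were higher and 29.7% lower in the combination, 24.6% and 24.8% in heat, and 18.1% and 16.6% in high light. The part of these marker shifts in the results was not tested. In whole leaves, fewer cells of a type and less RNA per cell cannot be told apart.

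A 13-base motif stands close to the start of some of these genes. The mitochondrial dysfunction motif, CTTGNNNNNCAAG or CTTGNNNNNCACG on either strand, is known as a binding sequence of NAC transcription factors that act in mitochondrial signalling. It was searched from 250 bases before to 50 after each annotated start in the RefSeq genome TAIR10.1. It was found in AOX1A, AOX1B, NDA1, NDB2 and UPOX, 5 of the 9, and in 391 of 27443 promoters of protein-coding genes (1.42%). The motif is known from the promoters of AOX1A and UPOX among others, so those matches are no new evidence. The stretches below run 5′ to 3′ on the strand of the gene, with the motif in capitals, and are shown because AOX1A, NDA1, NDB2 and UPOX are the 4 genes that rose in the combination. The stretches of AOX1A, which has a pair of matches, lie at chr3:7906513-7906534 and chr3:7906540-7906562, plus strand, the last one inside the transcript. The others are the 130 bases before each start: NDA1 at chr1:2203974-2204103, NDB2 at chr4:2572297-2572426, UPOX at chr2:9254248-9254377 and AOX1B at chr3:7903967-7904096, all on the plus strand. AOX1B is shown as the one with a match and no reads.
AOX1A site 1: tagctCTTGGCGACCACGcaag
AOX1A site 2: tccatCTTGCTCTCCAAGaaaaa
NDA1: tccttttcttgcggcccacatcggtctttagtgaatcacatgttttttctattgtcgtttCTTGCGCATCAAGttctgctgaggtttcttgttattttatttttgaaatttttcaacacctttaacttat
NDB2: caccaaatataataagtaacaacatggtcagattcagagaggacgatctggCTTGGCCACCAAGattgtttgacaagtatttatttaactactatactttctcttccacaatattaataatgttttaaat
UPOX: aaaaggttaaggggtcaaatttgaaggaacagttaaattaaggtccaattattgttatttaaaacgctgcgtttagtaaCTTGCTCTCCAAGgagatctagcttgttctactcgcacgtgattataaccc
AOX1B: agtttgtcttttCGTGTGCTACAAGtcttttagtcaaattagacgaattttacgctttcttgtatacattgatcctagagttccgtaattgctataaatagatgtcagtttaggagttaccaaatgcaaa

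The second match of AOX1A and the match of UPOX are the same 13 letters, CTTGCTCTCCAAG. The matches begin 79 bases before the start in NDB2, 70 in NDA1 and 51 in UPOX, 118 before it in AOX1B, and at -3 and 25 in AOX1A. Among the 197 tested genes with a match, 37.1% were higher in the combination than in control, 29.9% were higher in heat and 17.3% were higher in high light. The shares among all 19309 tested genes were 29.8%, 24.6% and 18.1%. Among the 1686 tested genes with a G-box the shares in the combination and heat were 37.8% and 30.5%, so such shares are not particular to the mitochondrial motif. These shares are descriptions with no test. Of the other motifs, all searched on both strands of the same window, the W-box (TTGACC or TTGACT) was in 6 of the 9 genes and 32.4% of promoters, and the heat shock element core (GAANNTTC or TTCNNGAA) in 2 and 19.3%. The G-box (CACGTG) was in 2 of the 9 genes and 7.68% of promoters, and the evening element (AAATATCT) in 0 and 5.65%. No match of different motifs overlapped another in these 9 windows. A match is a run of letters and not a measured binding site.

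**Figure D1:**
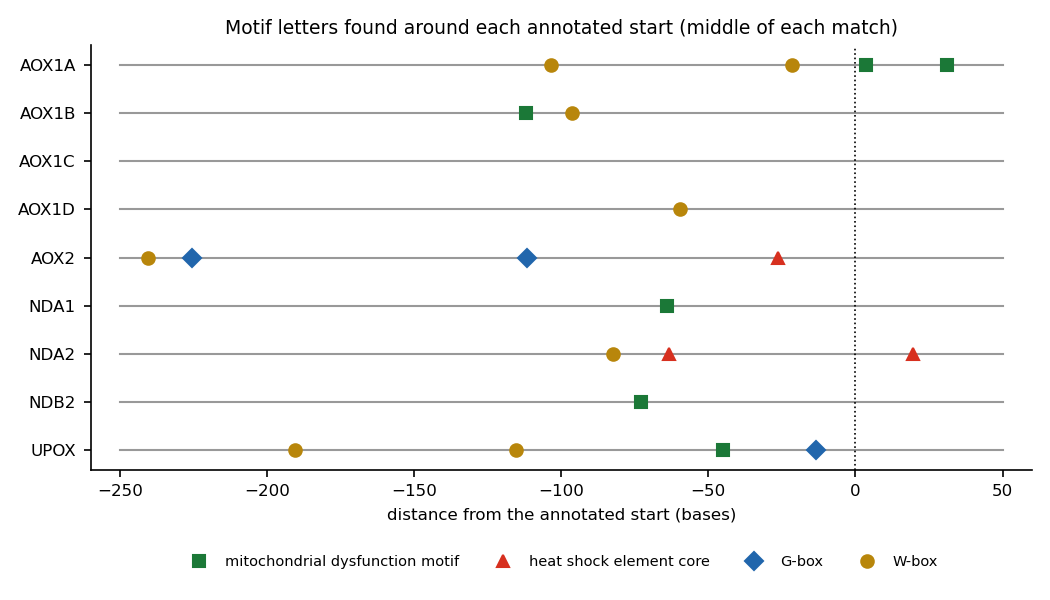
Position of each motif match (symbol at its middle) from 250 bases before to 50 bases after the annotated start of the 9 genes; the x axis is the distance from the start in bases. The mitochondrial dysfunction motif (green squares) occurs in AOX1A, AOX1B, NDA1, NDB2 and UPOX, at -79, -70 and -51 bases in NDB2, NDA1 and UPOX.

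AOX1A (AT3G22370, chr3:7906521-7908746, 4 exons) encodes the main stress-responsive alternative oxidase. It had 14925, 6477 and 3895 normalised counts in the combination, 2699, 3464 and 7113 in heat, 1751, 2424 and 2145 in high light and 1044, 1392 and 1356 in control. The control libraries were the lowest, high light lay just above them without overlap, and heat and the combination overlapped each other. AOX1A rose by 2.53 ± 0.42 (SE) log2 units in the combination against control (limma, adjusted p = 0.000286) and by 1.69 ± 0.42 in heat against control (adjusted p = 0.00572). With library totals the rise in the combination was 1.57 (adjusted p = 0.00353). High light differed from control by 0.74 ± 0.42 (adjusted p = 0.206), which did not pass in the fit over all groups and did pass when only these 2 groups were fitted (adjusted p = 0.00657). The combination was also higher than high light, by 1.79 ± 0.42 (adjusted p = 0.00314), a call that ended with library totals (0.89, adjusted p = 0.0644). Against heat it differed by 0.83 ± 0.42 (adjusted p = 0.113), and this passed without combination library 3 (1.28, adjusted p = 0.0200) or without heat library 3 (1.24, adjusted p = 0.0237), while library totals gave -0.036. Heat differed from high light by 0.96 ± 0.42 (adjusted p = 0.0787), which passed with DESeq2 (1.07, adjusted p = 0.0287), with only the compared groups in the fit (adjusted p = 0.0457), without heat library 1 (1.25, adjusted p = 0.0358) and without combination library 1 or 3. In order of mean level, neighbours among the 4 groups thus did not differ at the threshold, while the combination and heat each differed from control.

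NDB2 (AT4G05020, chr4:2572427-2576599, 11 exons) encodes an external NADH dehydrogenase and is known for transcript levels that follow AOX1A. It had 2968, 1797 and 1024 normalised counts in the combination, 591, 1221 and 1453 in heat, 348, 366 and 473 in high light and 230, 181 and 173 in control. Every library of a stress lay above every control library, and every combination and heat library above every high light library. NDB2 rose by 3.18 ± 0.37 log2 units in the combination (adjusted p = 2.02e-05) and by 2.39 ± 0.37 in heat (adjusted p = 0.00027), each against control by limma. With library totals the rise in the combination was 2.23 (adjusted p = 6.29e-05). In high light it rose by 1.02 ± 0.37, at the edge of the threshold (adjusted p = 0.0499). That call ended with the replicate number as a block (adjusted p = 0.072), with either other pseudocount, with no filter and in 8 of 12 fits that left out a library, namely any library of high light or control, combination library 2 or heat library 2 (0.88 to 1.14). Heat was higher than high light by 1.37 ± 0.37 (adjusted p = 0.00879). The combination was higher than high light by 2.17 ± 0.37 (adjusted p = 0.000339), or 1.27 with library totals (adjusted p = 0.00425), and differed from heat by 0.79 ± 0.37 (adjusted p = 0.0865). The difference from heat passed without combination library 3 (1.18, adjusted p = 0.0149) or heat library 3 (1.05, adjusted p = 0.0401), while library totals gave -0.076.

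UPOX (AT2G21640, chr2:9254378-9255743, 3 exons) followed heat more than light. It had 1686, 1467 and 370 normalised counts in the combination, 1061, 1278 and 1279 in heat, 269, 512 and 338 in high light and 114, 246 and 135 in control. Combination library 3 lay among the high light libraries, and the other combination libraries lay above all heat libraries. UPOX rose by 2.94 ± 0.48 log2 units in heat (adjusted p = 0.00038) and by 2.63 ± 0.48 in the combination (adjusted p = 0.000515), each against control by limma. The value of the combination was 3.33 without combination library 3 and 1.68 with library totals (adjusted p = 0.00621). In high light it differed from control by 1.201 ± 0.48 (adjusted p = 0.0707), which did not pass by limma. It passed with DESeq2 (1.17, adjusted p = 0.0298), with only the compared groups in the fit (adjusted p = 0.0204) and with the replicate number as a block (adjusted p = 0.0467). It also passed without combination library 1 or 3 or control library 2. Heat was higher than high light by 1.74 ± 0.48 (adjusted p = 0.00987). The combination was higher than high light by 1.43 ± 0.48 (adjusted p = 0.0220), a call that ended with library totals (0.53) and without combination library 1 or 2 or high light library 1 or 3, while the value was 2.13 without combination library 3. The combination and heat differed by -0.31 ± 0.48 (adjusted p = 0.604), and by -1.18 with library totals (adjusted p = 0.0429).

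**Figure D2:**
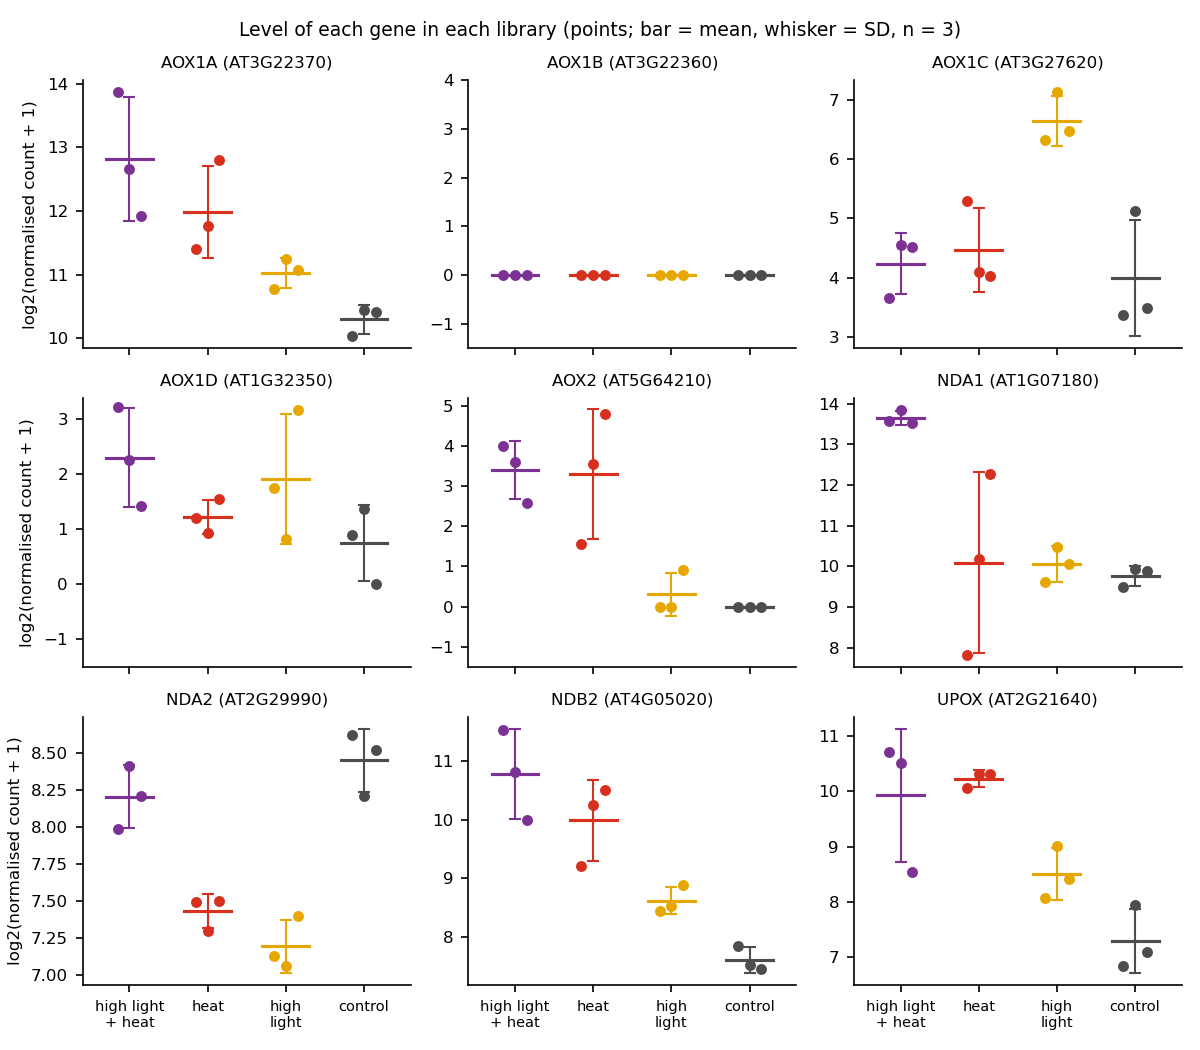
Level of each of the 9 genes as log2(normalised count + 1) in each library (points), by group, with the mean (bar) and SD (whisker) of 3 libraries. NDA1 is high in the 3 combination libraries and widely spread in heat, AOX1C is highest in high light, and AOX1B is at 0 in every library; the y axes differ between panels.

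NDA1 (AT1G07180, chr1:2204104-2207099, 8 exons), an internal NADH dehydrogenase known for light-dependent transcript levels, stood apart from the other genes. It had 12266, 14559 and 11765 normalised counts in the combination, 227, 1149 and 4917 in heat, 780, 1431 and 1069 in high light and 713, 971 and 944 in control. All 3 combination libraries lay above every other library, the highest of which was heat library 3. Heat library 1 was below all control libraries and heat library 3 above all of them. In the combination NDA1 rose by 3.88 ± 0.75 log2 units against control (adjusted p = 0.000754), by 3.59 ± 0.75 against high light (adjusted p = 0.00133) and by 3.56 ± 0.75 against heat (adjusted p = 0.00168), all by limma. With library totals these were 2.93, 2.69 and 2.69, and all 3 passed. The difference from heat was 2.43 without heat library 1 and 4.65 without heat library 3. Neither single stress passed against control, with 0.32 ± 0.75 in heat (adjusted p = 0.742) and 0.29 ± 0.75 in high light (adjusted p = 0.805). Without heat library 1, heat did pass (1.45, adjusted p = 0.0194), and without heat library 3 its difference was -0.76. Heat differed from high light by 0.035 ± 0.75 (adjusted p = 0.973).

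The heat libraries differed in more than NDA1. Transcripts of 6 heat shock proteins, picked with their values known, made 0.541%, 1.56% and 2.62% of the reads of heat libraries 1, 2 and 3. AOX1A, NDA1, NDB2, UPOX and, at few reads, AOX2 followed the same order over these 3 libraries, with UPOX nearly level in libraries 2 and 3. The same share was 3.45%, 5.16% and 3.99% in the combination and at most 0.0121% in high light and 0.00235% in control. None of these genes followed that order in the combination. Library 1 was highest there for AOX1A, NDB2, UPOX and AOX2, and NDA1 was lowest in library 3. What part the extent of the heat response in a library had in these levels was not tested.

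NDA2 (AT2G29990, chr2:12793320-12796085, 8 exons), the other internal NADH dehydrogenase, fell in both single stresses. It had 253, 340 and 294 normalised counts in the combination, 179, 156 and 180 in heat, 139, 132 and 167 in high light and 392, 295 and 366 in control. The heat and high light libraries lay below all control and all combination libraries. NDA2 fell by 1.02 ± 0.19 log2 units in heat (adjusted p = 0.000903) and by 1.26 ± 0.19 in high light (adjusted p = 0.000253), each against control by limma. In the combination it differed from control by -0.25 ± 0.19 (adjusted p = 0.279) and was higher than in high light by 1.01 ± 0.19 (adjusted p = 0.00065) and than in heat by 0.77 ± 0.19 (adjusted p = 0.00435). With library totals these values were -1.195 against control, a call (adjusted p = 0.000302), 0.11 against high light (adjusted p = 0.651) and -0.093 against heat (adjusted p = 0.727). The falls in the single stresses held under that scaling. Heat differed from high light by 0.24 ± 0.19 (adjusted p = 0.319).

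AOX1C (AT3G27620, chr3:10229045-10230707, 4 exons) was low everywhere but in high light. It had 11.6, 22.4 and 21.7 normalised counts in the combination, 38.0, 16.2 and 15.3 in heat, 79.1, 138 and 87.7 in high light and 9.29, 33.9 and 10.2 in control. All 3 high light libraries lay above all 9 others, which overlapped one another. AOX1C rose by 2.65 ± 0.51 log2 units in high light against control (limma, adjusted p = 0.00152). It was lower in the combination than in high light (-2.402 ± 0.51, adjusted p = 0.00159, and -3.26 with library totals) and lower in heat than in high light (-2.17 ± 0.51, adjusted p = 0.00411). In heat and in the combination it differed from control by 0.48 ± 0.51 and 0.24 ± 0.51, and neither passed (adjusted p = 0.463 and 0.701). With library totals the difference of the combination from control was -0.65. The combination differed from heat by -0.23 ± 0.51 (adjusted p = 0.716). These levels rest on 99 to 181 reads in the high light libraries and 7 to 58 in the other libraries.

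The other alternative oxidases were barely detected. AOX2 (AT5G64210, chr5:25683770-25685731) had 14.9, 11.2 and 5.02 normalised counts in the combination, 1.96, 10.8 and 26.7 in heat, 0, 0 and 0.885 in high light and 0 in all 3 control libraries. With the deposited scaling, its mean was at least 4.17-fold in the combination and 5.29-fold in heat of the level that 3 reads give in control. These bounds cover counting error only, and none was computed with library totals. They rest on 18 reads in the combination, 3 to 9 a library, and on 43 in heat, of which 28 were in library 3. Heat library 1 was itself below the level that 3 reads give in control. AOX1D (AT1G32350, chr1:11666886-11668690) had 8.27, 3.74 and 1.67 in the combination, 1.31, 0.898 and 1.91 in heat, 2.35, 0.765 and 7.97 in high light and 0.844, 1.58 and 0 in control, between 0 and 9 reads a library. AOX1B (AT3G22360, chr3:7904097-7905576) had 0 reads in all 12 libraries, though it lies beside AOX1A on the same strand and shares 79.3% of aligned coding bases with it. No stretch of 50 bases in the exons of these 9 genes occurs elsewhere in the genome, and none overlaps another annotated gene, so reads of that length could be told apart.

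Of the 6 tested genes, AOX1A, NDA1, NDB2 and UPOX rose in the combination against control and 0 fell, where 59.4% of all tested genes were called, 29.8% as higher and 29.7% as lower. In heat 3 rose (AOX1A, NDB2 and UPOX) and NDA2 fell, where 49.3% were called, 24.6% as higher and 24.8% as lower. In high light AOX1C and NDB2 rose and NDA2 fell, where 34.7% were called, 18.1% as higher and 16.6% as lower. The median log2 difference of the 6 genes was 2.58 in the combination, 1.08 in heat and 0.88 in high light, against -0.016, -0.00079 and -0.029 over all tested genes. These comparisons share the control libraries. Against high light, the combination was higher for 5 genes and lower for AOX1C, where 57.4% of all genes were called, 28.1% as higher and 29.3% as lower. Against heat it was higher for NDA1 and NDA2, where 54.9% were called, 27.9% as higher and 27% as lower, and 4 genes were higher when combination library 3 or heat library 3 was left out. Heat was higher than high light for NDB2 and UPOX and lower for AOX1C, where 49.5% were called, 24.5% as higher and 24.9% as lower. With shares of called genes this large, these counts alone do not set the 6 genes apart from the rest.

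**Figure D3:**
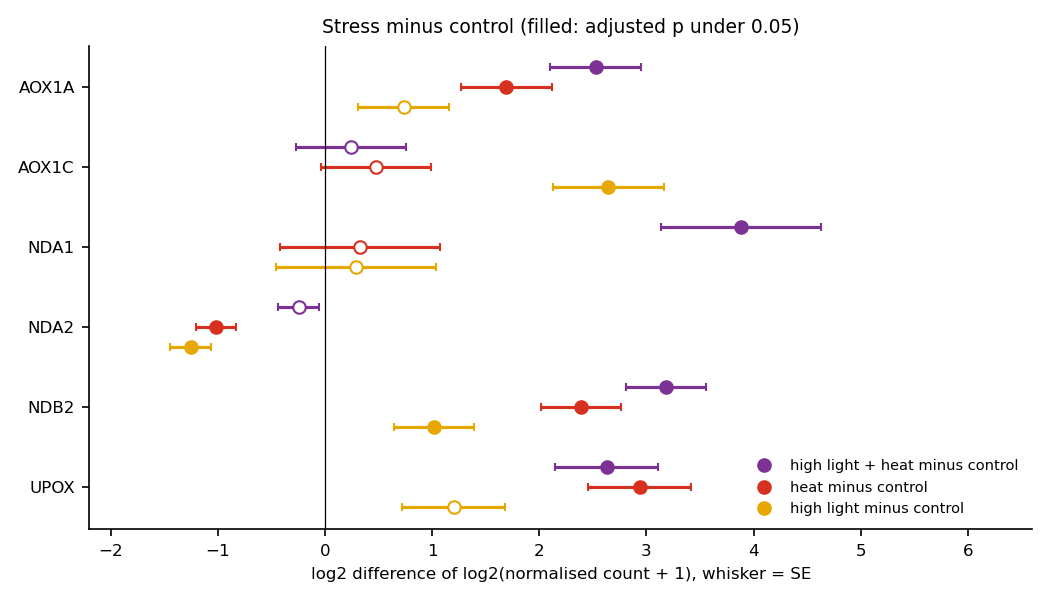
Log2 difference (x axis, whisker SE) of the 6 tested genes from control in the combination, heat and high light, with filled points where the adjusted p was under 0.05. NDA1 is far from 0 in the combination alone (3.88), AOX1C in high light alone (2.65), and NDA2 is below 0 in both single stresses.

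The combination was then set against the sum of the single stresses, the interaction of light and heat on the log2 scale, where 46.2% of all tested genes were called, 23% as higher and 23.2% as lower. Of the 6 genes, NDA1 and NDA2 were higher than the sum and AOX1C lower. NDA1 stood 3.88 above control where the single differences added to 0.61, an interaction of 3.27 ± 1.06 (limma, adjusted p = 0.0236). That call ended with edgeR (2.25, adjusted p = 0.0800), with DESeq2 (2.30, adjusted p = 0.0830) and without high light library 1 (3.05, adjusted p = 0.0540), and its value was 2.14 without heat library 1 and 4.36 without heat library 3. NDA2 stood at -0.25 where the single differences added to -2.28, an interaction of 2.03 ± 0.27 (adjusted p = 0.000121). AOX1C stood at 0.24 where the single differences added to 3.12, an interaction of -2.88 ± 0.73 (adjusted p = 0.00656). With library totals the interactions of NDA1, NDA2 and AOX1C were 2.45, 1.22 and -3.67, and all 3 passed.

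For AOX1A and NDB2 the combination was close to the sum in value: 2.53 against 2.43 for AOX1A (interaction 0.10 ± 0.60, adjusted p = 0.906) and 3.18 against 3.40 for NDB2 (-0.22 ± 0.525, adjusted p = 0.748). Missing the threshold does not show that the combination equals the sum, given these errors. UPOX stood at 2.63 against a sum of 4.14, an interaction of -1.51 ± 0.68 that did not pass (adjusted p = 0.0866), and did with library totals (-2.33, adjusted p = 0.0104) and without combination library 1 (-1.91, adjusted p = 0.0311). The sign of the AOX1A interaction was negative with library totals (-0.72, adjusted p = 0.306).

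**Figure D4:**
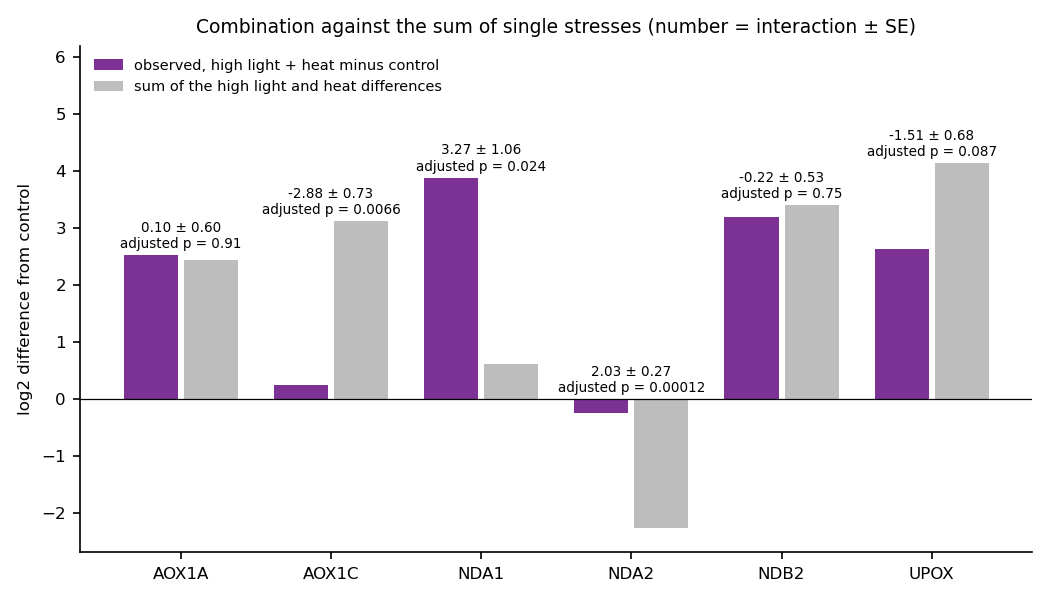
Observed log2 difference of the combination from control (purple bars) beside the sum of the heat and high light differences (grey bars) for the 6 tested genes, with the interaction ± SE and its adjusted p above each pair. The bars are nearly level for AOX1A and NDB2, while NDA1 exceeds its sum (3.88 against 0.61) and AOX1C falls short of it (0.24 against 3.12).

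Per kilobase of exon, the levels of different genes can be set side by side. NDA1 averaged 5931 ± 687 normalised counts per kb in the combination (SD, n = 3), and in order of mean AOX1A came next at 4780 ± 3270, then UPOX at 1598 ± 960 and NDB2 at 753 ± 382. In combination library 1, AOX1A reached 8461 per kb, above the highest NDA1 library (6712), so the order of NDA1 and AOX1A holds for the means only. In control the order was AOX1A at 717 ± 108, NDA1 at 404 ± 65.2, UPOX at 224 ± 96.5, NDA2 at 181 ± 25.9 and NDB2 at 76.0 ± 11.9 normalised counts per kb. AOX1A made 99.3% ± 0.33 of the summed per-kb level of the 5 alternative oxidases in the combination, 98.7% ± 0.61 in heat, 93.9% ± 0.80 in high light and 98.2% ± 1.22 in control (SD, n = 3 each). AOX1C made 5.87% ± 0.98 of that sum in high light and 1.74% ± 1.17 in control, with no overlap between the libraries. NDA1 made 97.5% ± 0.24 of the summed NDA level in the combination and 53.1%, 86.8% and 96.1% in the heat libraries, against 86.4% ± 3.77 in high light and 68.8% ± 6.40 in control. These shares do not depend on the scaling between libraries.

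Over the 12 libraries, which share their group differences and scaling, log2 levels of AOX1A and NDB2 had a Pearson r of 0.957. UPOX had r = 0.884 with NDB2 and 0.871 with AOX1A, NDA1 had 0.764 with AOX1A, and AOX1C had -0.703 with NDA2. These are descriptions with no test. Among all tested genes with a symbol, those most like NDB2 were CSP3 (r = 0.986), PBC2 (0.986) and LIS (0.985). LIS was also among those most like AOX1A (0.965), after UGT89B1 (0.976) and before NTMC2T5.2 (0.962). The genes most like NDA1 were FAD5 (0.979), ABCB26 (0.974) and CDC48 (0.971). FPS1 (0.971), SCPL27 (0.965) and GALK (0.965) were most like NDA2, PRMT1A (0.952), PPR596 (0.940) and RBL (0.932) most like AOX1C, and PDIL2-2 (0.950) and SE (0.941) were among those most like UPOX.

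A further list held 5 genes. PTOX (the IMMUTANS locus), 1 of them, encodes the plastid terminal oxidase and lies outside the mitochondrial bypass. NDB1, an external dehydrogenase, NDC1, a dehydrogenase found in mitochondria and chloroplasts, and PTOX passed the low-value filter, and NDB3 and NDB4 did not. All 3 tested genes were called higher in the combination against control, where 29.8% of all tested genes were higher. NDB1 rose by 0.84 ± 0.15 log2 units (adjusted p = 0.000525), NDC1 by 0.48 ± 0.18 (adjusted p = 0.0309) and PTOX by 0.42 ± 0.15 (adjusted p = 0.0285), by limma. With TMM and upper-quartile scaling, NDB1 alone of these kept its call. With library totals NDB1 lost its call (-0.11, adjusted p = 0.524), and NDC1 and PTOX were called lower (-0.47 and -0.53). In heat 0 of the 3 rose and NDC1 fell (-0.47 ± 0.18, adjusted p = 0.0402), against 24.6% and 24.8% of all tested genes. In high light NDC1 rose (0.66 ± 0.18, adjusted p = 0.0103), PTOX rose (0.49 ± 0.15, adjusted p = 0.0230) and NDB1 fell (-0.54 ± 0.15, adjusted p = 0.0160). Of all tested genes 18.1% were higher and 16.6% lower in high light. NDB3 reached at most 11.6 normalised counts in a library and NDB4 at most 6.26.

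The main respiratory chain gave many calls, to be read against the shares of all tested genes. In the combination, heat and high light, 29.8%, 24.6% and 18.1% of all tested genes were higher, and 29.7%, 24.8% and 16.6% lower. The alternative dehydrogenases bypass complex I. All 12 listed nuclear genes of that complex were called higher in the combination, with a median log2 difference of 0.88. In heat 2 were higher and 1 lower, and in high light 3 were higher and 0 lower. PSST (AT5G11770, a subunit of the quinone-reducing module) had the largest difference in the combination, 1.37 ± 0.26 (limma, adjusted p = 0.000589). With library totals 0 of the 12 were higher and 1 was lower in the combination (median -0.073), against 11 higher with TMM and with upper-quartile scaling. Under the same scaling the 6 tested alternative oxidase, dehydrogenase and UPOX genes had a median of 1.63.

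Of 18 listed nuclear genes of the cytochrome pathway, which the alternative oxidases bypass, 15 were called higher in the combination and 0 lower. The median of the 18 was 1.09. In heat 5 were higher and 2 lower, and in high light 8 were higher and 0 lower. With library totals the combination had 4 higher and 3 lower (median 0.14). CYTC-2, which encodes cytochrome c, had 5117, 4742 and 3032 normalised counts in the combination, 720, 1592 and 2528 in heat, 2194, 2206 and 2679 in high light and 205, 231 and 223 in control. All of its stress libraries lay above all control libraries, and it rose by 4.25 ± 0.35 in the combination and by 3.42 ± 0.35 in high light (adjusted p = 1.62e-06 and 1.52e-05). The largest difference was that of AT5G25450, a small complex III subunit, which had 12258, 34827 and 22340 normalised counts in the combination, 600, 1168 and 2325 in heat, 13.3, 57.4 and 48.7 in high light and 7.60, 11.04 and 5.98 in control. It rose by 11.21 ± 0.57 in the combination and by 7.04 ± 0.57 in heat (adjusted p = 1.04e-07 and 4.56e-06). A long non-coding RNA and a transcribed pseudogene overlap AT5G25450 on the other strand. The strand setting of the counting is not given in the sources used here, so reads of these loci cannot be told apart.

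Complex II, succinate dehydrogenase, had 4 of 5 listed genes tested. Of these, 3 were higher in the combination and 0 lower, against 29.8% and 29.7% of all tested genes. In high light 3 were higher and 0 lower, against 18.1% and 16.6% of all tested genes. With library totals the combination had 1 higher and 1 lower, and SDH2-1 (0.97, adjusted p = 0.0702) and SDH1-1 (-0.070, adjusted p = 0.756) lost their calls. SDH2-3, an iron-sulphur subunit known mainly from seeds, had 0, 0 and 3.35 normalised counts in the combination, 0 in all 3 heat libraries, 149, 39.8 and 102 in high light and 3.38, 3.15 and 4.27 in control. It rose by 4.23 ± 0.66 in high light (limma, adjusted p = 0.000336). It passed the filter on low values only through high light, so this call, 1 of the 3 given above, follows in part from the filter. Its call as lower in heat set 0 reads against 4 to 5 reads in a control library. SDH2-2, another form of that subunit, rose by 1.93 ± 0.30 in the combination (adjusted p = 0.000165), and by 0.98 with library totals (adjusted p = 0.00627). Among uncoupling proteins and dicarboxylate carriers of the inner membrane, 5 of 6 were tested, and 1 rose and 1 fell in the combination, where 29.8% of all tested genes rose and 29.7% fell. With library totals 0 were higher and 4 lower. DIC2, a dicarboxylate carrier, rose by 2.25 ± 0.52 (adjusted p = 0.00244), a call that ended with library totals (1.298), and UCP2 fell by 1.08 ± 0.21 (adjusted p = 0.00085). In heat 0 rose and UCP2 fell (-0.72 ± 0.21, adjusted p = 0.0132), against 24.6% and 24.8% of all tested genes. In high light 0 of 5 passed by limma, where 34.7% of all tested genes were called.

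Among 10 tested of 11 listed genes known to respond with AOX1A to mitochondrial dysfunction, 4 rose in the combination and 0 fell, against 29.8% and 29.7% of all tested genes, with a median of 1.54. With library totals 3 were higher and 1 lower (median 0.61). The same motif was found in 6 of the 11. In heat 4 rose and 1 fell, against 24.6% and 24.8% of all tested genes. In high light 1 rose and 1 fell, against 18.1% and 16.6% of all tested genes. The list is known partly through that motif, so its share is not independent. AT5G51440, a mitochondrial small heat shock protein, had 70904, 156750 and 91944 normalised counts in the combination, 3027, 12196 and 22388 in heat, 90.03, 2492 and 1003 in high light and 2.53, 52.8 and 11.1 in control. No library of a group overlapped those of the next group, and the differences from control were 12.90 ± 1.15, 9.47 ± 1.15 and 5.53 ± 1.15 (limma, adjusted p = 2.9e-06, 5.15e-05 and 0.00242). CRF6, a transcription factor of the cytokinin response, rose by 2.29 ± 0.28 in the combination (adjusted p = 3.03e-05). AT5G09570, a Cox19-like protein, rose by 3.56 ± 0.73 (adjusted p = 0.00119) at low levels, at most 33.6 normalised counts in a library. It passed the filter on low values only through the combination and heat, with 0 to 1 reads in a control library. Its calls as higher in those groups, counted among the 4 in each, thus follow in part from the filter. The counts alone do not set the listed genes apart from all tested genes. OM66, an outer membrane ATPase known as a marker of this response, differed from control by 0.46 ± 0.50 in the combination and did not pass (adjusted p = 0.450), and it was added here after its values were seen.

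Regulators of mitochondrial signalling followed a mixed course. Of 10 tested of 13 listed, 3 rose and 1 fell in the combination, 3 rose and 0 fell in heat, and 3 rose and 2 fell in high light. Of all tested genes 29.8% were higher and 29.7% lower in the combination, so 3 of 10 higher is near the background. With library totals 2 of the 10 were higher and 5 lower. The shares of all tested genes were 24.6% higher and 24.8% lower in heat, and 18.1% higher and 16.6% lower in high light. NAC013 (AT1G32870), a membrane-bound factor known to bind the motif printed above, had 7693, 5941 and 3428 normalised counts in the combination, 1466, 3419 and 5203 in heat, 798, 1028 and 856 in high light and 323, 494 and 364 in control. As with NDB2, every stress library lay above every control library. It rose by 3.80 ± 0.39 in the combination (adjusted p = 8.57e-06), by 2.93 ± 0.39 in heat (adjusted p = 9.97e-05) and by 1.197 ± 0.39 in high light (adjusted p = 0.0322). NAC078 (AT5G04410), a related factor, rose by 3.11 ± 0.31 in the combination (adjusted p = 6.43e-06). MYB29, known from glucosinolate synthesis and as a regulator of AOX1A, fell by 1.67 ± 0.36 (adjusted p = 0.00161). NAC017, a membrane-bound factor known to be released by cleavage, differed from control by 0.27 ± 0.17 in the combination and did not pass (adjusted p = 0.185), and it too was added after its values were seen. NAC013 and NAC078 overlap annotated genes on the other strand, as do NDB1, SDH2-2, UCP2 and RCA, so the limit given for AT5G25450 holds for them too. SDH2-1, NDB3 and CA1 overlap a gene on their own strand.

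**Figure D5:**
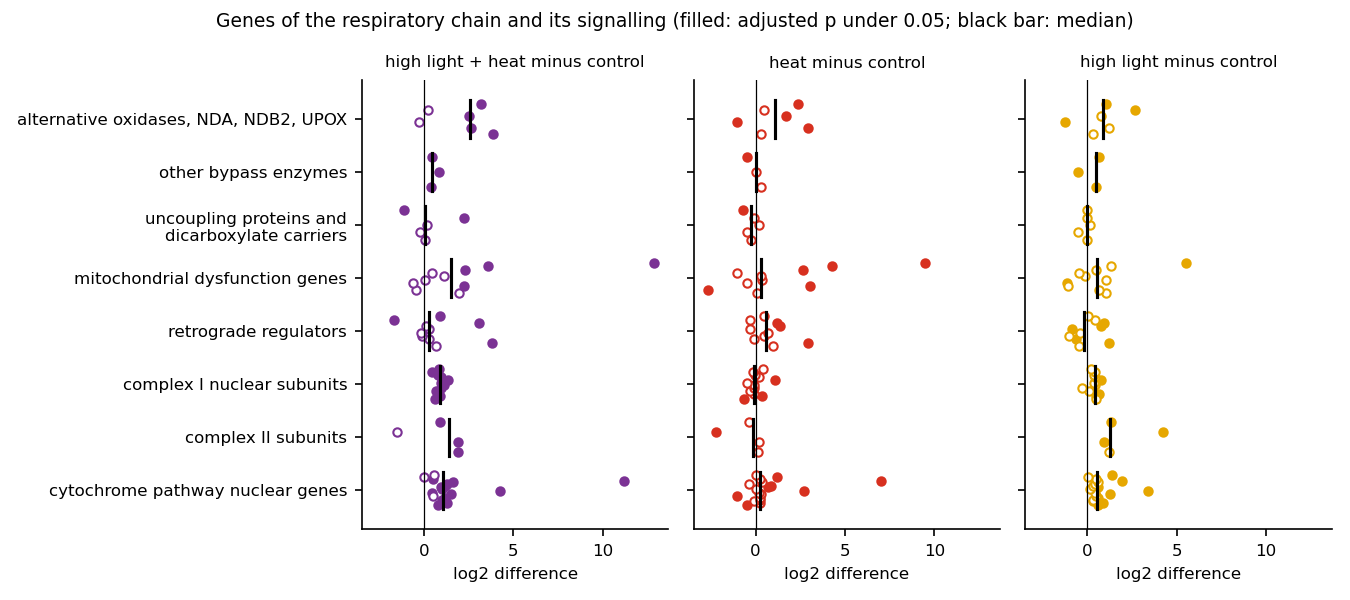
Log2 difference from control of each tested gene (points, filled where the adjusted p was under 0.05) in 8 groups of genes, with the median as a black bar, in the combination, heat and high light. The 6 tested genes described here have medians of 2.58, 1.08 and 0.88. Those of the listed complex I genes are 0.88, -0.087 and 0.41, and those of the listed cytochrome pathway genes 1.09, 0.23 and 0.53.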

How the data were processed

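Per the labels' protocols, leaf RNA was taken with Trizol, cleaned on a column and made into TruSeq libraries from poly(A) RNA. The submitters' processing notes name FastQC 0.11.7, STAR 2.4.0.1, DESeq2 1.20.0 and the build TAIR10. The counting tool, annotation release and strand setting are not given in the sources used here. The deposited signal values are read counts that the authors divided by 1 size factor per library. Multiplied by that factor, 100% of the values above 0 were whole to within 0.001, which gave back the reads.

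Genes with a mean of at least 10 were tested, 19309 of 32833, on log2(normalised count + 1) with limma 3.58.1 (limma-trend, R 4.3.3), two-sided, all 12 libraries and 1 mean per group. Fold changes on this scale understate those of low genes. P-values were adjusted by Benjamini-Hochberg over all tested genes in each of 7 comparisons, with a threshold of 0.05. On recovered reads, edgeR 4.0.16 called 11360 genes in the combination against control and DESeq2 1.42.0 called 11782, against 11476 by limma. The test was tried on simulated data. Names, gene models, promoters and coordinates are RefSeq's for TAIR10.1; the deposited table holds loci only. Levels per kb used the merged exon length. Intervals and floors (3 reads per library) cover counting error only.

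Same-numbered libraries deviated together from their group means in high light and control (r = 0.159, 0.157 and 0.307) and in heat and high light (0.147, 0.152 and 0.151). Libraries of unlike number reached 0.187 (combination 1 with heat 2) and 0.167 (combination 3 with heat 1). Same-numbered heat and control libraries had 0.068, 0.001 and 0.0066. The labels name no pairing, and these values alone do not establish one. Blocked values stand beside a result where they change its call.

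The 9 genes and all lists were chosen with earlier results of these data known. All 9 are named, the 6 tested ones with each of the 7 comparisons. From each list, the 3 called genes with the largest difference in the combination and the 1 in each single stress could be named, and 3 genes with the highest r per tested gene, of which 1 is not reported here. Other settings tried were a pseudocount of 0.5 or 10, a mean of at least 50 or no filter, TMM, upper-quartile and library-total scaling, a robust prior, a fit without the groups not compared, the replicate number as a block, edgeR, DESeq2, stricter thresholds, each library left out in turn, and the removal of heat library 1 with combination library 2.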

Additional observations from a re-analysis of the deposited data

Results flagged for a closer look

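For 3 genes the effect of light under heat differed from the effect of light without heat, by a test of that difference. For NDA1 the difference between these light effects was 3.269 on the log2 scale, for NDA2 it was 2.029 and for AOX1C it was -2.879. The call of NDA1 was lost with edgeR (2.25, adjusted p = 0.0800), with DESeq2 (2.30, adjusted p = 0.0830) and without high light library 1 (3.05, adjusted p = 0.0540). The difference with light for NDA1 was 3.56 under heat and 0.29 without heat, the last not called (limma, adjusted p = 0.805). For NDA2 it was 0.77 under heat, or -0.093 with library totals (adjusted p = 0.727), and -1.26 without heat. For AOX1C it was -0.23 under heat, which was not called (adjusted p = 0.716), and 2.65 without heat.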

How the results depend on the processing

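Of 1121 log2 differences recomputed under the alternatives, 1047 kept direction and side of the threshold, 27 lost and 23 gained a call, and 24 changed sign. With library totals, calls of the combination against high light were 3 in place of 6. The differences that changed sign under that scaling were -0.65 for AOX1C against control, -0.036, -0.093 and -0.076 for AOX1A, NDA2 and NDB2 in the combination against heat, and -0.72 for the AOX1A interaction. With only the compared groups in the fit, 5 genes were called in high light against control in place of 3. With an absolute log2 change of at least 1, 1 gene was called in the combination against heat in place of 2. Upper-quartile scaling gave -0.063 for NDA1 in heat against high light, and edgeR gave -0.034 for AOX1C in the combination against control. Without heat library 1 and combination library 2 together, AOX1C gave 0.017 in the combination against heat and the AOX1A interaction was -0.12. Uncalled differences changed sign when 1 library was left out. Ranges were -0.072 to 0.81 for AOX1C in the combination against control, -0.76 to 1.45 for NDA1 in heat against control, -0.46 to 0.17 for AOX1C and -0.71 to 0.39 for UPOX in the combination against heat, -1.05 to 1.16 for NDA1 in heat against high light, and -0.43 to 0.54 for AOX1A and -0.61 to 0.17 for NDB2 in the interaction. Calls in the combination against heat ranged from 2 to 4. The causes of these changes were not tested. Over all genes, calls in high light against control were 10300 with only the compared groups, against 6701. At an adjusted p under 0.01 they were 4371, and in the interaction 5725 against 8927. With an absolute log2 change of at least 1 they were 7319 against 11476 in the combination and 5621 against 9528 in heat, each against control, 3900 against 6701 in high light, 7080 against 11075 and 6382 against 10607 in the combination against high light and heat, and 5615 against 9551 in heat against high light.

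The replicate number as a block left the count of called genes in the combination against control at 4 and changed only the calls of NDB2 and UPOX in high light against control (adjusted p = 0.072 and 0.0467). Outside the pairs of high light with control and of heat with high light, deviations of same-numbered libraries had r between -0.0757 and 0.107. AOX1B, AOX1D and AOX2 are limited by depth: 3 reads stand for 1.96 to 5.60 normalised counts in a library.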
